A study of Mus musculus with 6 samples.

Results

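The amyloid precursor protein family and the proteases that cut it were followed with Ribo-STAMP, a method that reads translation from RNA edits. The 8 genes are App, Aplp1 and Aplp2 for the precursor family, Adam10 for the alpha-secretase, Bace1 for the beta-secretase, and Psen2, Ncstn and Aph1a for subunits of gamma-secretase. They were taken by symbol from the 31053 Ensembl genes of the deposited tables, and each of the 8 had a value in all 6 libraries. A value above 0 was present in all 6 libraries for 7 of them, and Psen2 was listed at 0 in 1 library.

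Every library came from wild-type primary cortical neurons of C57BL/6J mouse embryos at embryonic day 18, cultured with floxuridine, infected with AAV on day in vitro (DIV) 6 and collected on DIV 14. In all 6 libraries doxycycline at 1 µg/ml for 48 h had induced a Tet-On cassette in which the neuronal synapsin promoter drives the transactivator. The constructs fused rAPOBEC1, a deaminase that turns C into U, to 1 of 2 proteins of the large ribosomal subunit, RPL10A in 3 libraries (RPL10A-STAMP) and RPL22 in the other 3 (RPL22-STAMP). The comparison asked how these variants differ in neurons, and no library without an editor was analysed here. The measured value is edits per read (EPR), the number of C-to-U edits in a gene divided by its reads.

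APP is a membrane protein of neurons that is shed either by ADAM10 or, to start amyloid-beta production, by BACE1. The stub left in the membrane is then cut by gamma-secretase, a complex of a presenilin such as PSEN2, nicastrin (Ncstn), an APH-1 protein and PEN-2 (Psenen). APLP1 and APLP2 are close relatives of APP that are shed and cut in the same way but lack the amyloid-beta stretch.

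Between 9892 and 11195 genes had an EPR above 0 per library. All 5 neuronal markers, both excitatory and both inhibitory neuron markers were edited in all 6 libraries. Their summed EPR with RPL10A-STAMP was 0.0820 to 0.0985 (neuronal), 0.0899 to 0.114 (excitatory) and 0.0162 to 0.0208 (inhibitory). With RPL22-STAMP these sums were 0.0778 to 0.101, 0.0908 to 0.134 and 0.0300 to 0.0332. A sum of EPRs is per read and does not measure the share of a cell type. Of 4 astrocyte markers 3 were edited in all 6, with a summed EPR of 0.0996 to 0.131 with RPL10A-STAMP, against 0.0825 to 0.138 with RPL22-STAMP. Of 4 oligodendrocyte markers 2 were edited in no library (Mog and Mag), and the summed EPR was 0.00358 to 0.0886 with RPL10A-STAMP, against 0.00360 to 0.0532 with RPL22-STAMP. Of 4 microglia markers 3 were edited in no library, and the sum reached 0.0143 and 0.0364 at most. The part of glial RNA in the results below was not tested. Rpl10a itself had an EPR of 0.0332, 0.0432 and 0.0551 in the RPL10A-STAMP libraries and 0.0244, 0.0156 and 0.0126 in the RPL22-STAMP libraries. Rpl22 had 0.00534, 0.0101 and 0.0110 against 0.00544, 0.00795 and 0.00628. Apobec1 was above 0 in 1 RPL10A-STAMP library (0.00901). Transgene and endogenous reads of these genes cannot be told apart in the tables.

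The ends of the coding sequences of the 3 precursor genes are shown first, because they encode the cytoplasmic tails with the sorting motif that adaptor proteins bind, and because they carry unequal numbers of the cytidines this editor favours. Each stretch is the last 90 coding bases before the stop codon, read 5′ to 3′ from mouse build GRCm38 (mm10) on the minus strand. Capitals mark a C with A or T on both sides, the sequence context rAPOBEC1 is known to prefer. They mark letters and not measured edits.
App, chr16:84955334-84955423, exon 18 of 18: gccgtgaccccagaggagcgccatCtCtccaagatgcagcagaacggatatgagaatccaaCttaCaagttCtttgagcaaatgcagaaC
Aplp1, chr7:30435296-30435385, exon 17 of 17: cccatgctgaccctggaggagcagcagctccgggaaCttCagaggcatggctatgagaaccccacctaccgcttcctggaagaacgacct
Aplp2, chr9:31150874-31150963, exon 17 of 17: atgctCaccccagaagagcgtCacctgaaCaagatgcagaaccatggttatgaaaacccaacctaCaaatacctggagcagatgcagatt
App had 6 such cytidines of 24, Aplp1 2 of 30 and Aplp2 4 of 24. In these tails App matched Aplp2 at 71.1% of aligned bases and Aplp1 at 64.0%, and over the whole coding sequence at 67.1% and 63.4%.

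The 2 members at the ends of the range of GC content were Adam10 and Aplp1. Their coding windows of 60 bases with the most marked cytidines, the first on the plus strand and the second on the minus strand, are shown for contrast.
Adam10, chr9:70761649-70761708, exon 10 of 16: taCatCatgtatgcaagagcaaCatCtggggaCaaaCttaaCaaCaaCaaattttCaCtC
Aplp1, chr7:30444320-30444379, exon 2 of 17: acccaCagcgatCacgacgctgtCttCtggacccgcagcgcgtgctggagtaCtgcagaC
The Adam10 window held 12 marked cytidines of 14, and the Aplp1 window 6 of 21. Over the whole transcript with the longest coding sequence, GC content was 42.1% in Adam10 and 60.2% in Aplp1, against a median of 48.9% over the tested genes. The transcripts held 76.4 and 46.1 marked cytidines per kb, with a median of 69.6. Over these transcripts App (46.1% GC, 76.9 marked cytidines per kb) lay nearer to Adam10, and Aplp2 (48.4%, 54.8 per kb) lay between. The App transcript had 8167 bases, 2310 of them coding. Over its coding bases alone App had 55.3% GC and 60.6 marked cytidines per kb, below the median coding density of 66.8. GC content below is that of the whole transcript, and which App transcripts the reads came from was not tested.

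App was the most edited of the 8 genes in every library. Its EPR was 0.0442, 0.0543 and 0.0624 in the RPL10A-STAMP libraries and 0.0457, 0.0607 and 0.0854 in the RPL22-STAMP libraries. These values were 2.11 to 2.83 times those of the next member of the same library. Among all edited genes of a library, App stood between the 91.6th and the 97.4th percentile. Its lowest library lay above the highest library of any other member in both variants, whereas every other pair of neighbours in the order of means overlapped. With RPL10A-STAMP the order by mean EPR was App, Bace1, Adam10, Aplp2, Psen2, Aplp1, Aph1a and Ncstn. With RPL22-STAMP it was App, Aplp1, Aph1a, Aplp2, Psen2, Bace1, Ncstn and Adam10. EPR is given per read, so these orders compare editing per read and not the amount of RNA or protein.

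**Figure D1:**
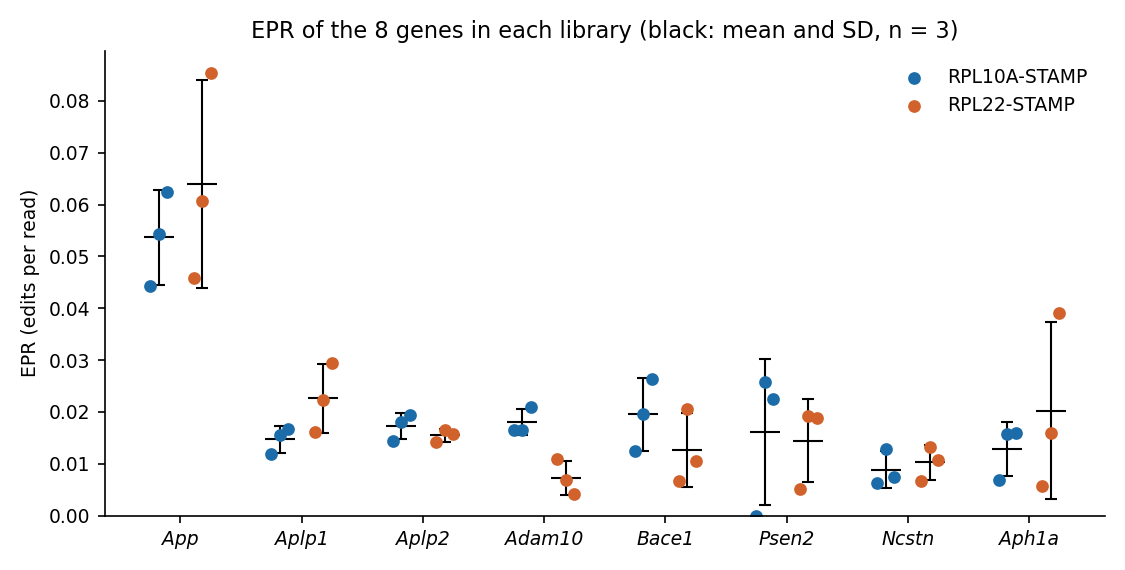
EPR (edits per read, linear axis from 0) of the 8 genes in each of the 6 libraries, with RPL10A-STAMP in blue and RPL22-STAMP in orange. Black marks give the mean and SD of 3 libraries. App lies at 0.0442 to 0.0854, above the other genes, and the Adam10 libraries of the variants do not overlap.

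The variants were compared with limma over the 8046 genes edited in all 6 libraries, after each library had been scaled to a common median EPR. Fold changes are on the log2(scaled EPR + 0.01) scale, where a positive value means higher with RPL10A-STAMP, and come out too small where the EPR is low. At a Benjamini-Hochberg adjusted p under 0.05, 14.3% of all tested genes differed. The RPL10A-STAMP libraries were higher for 8.51% and the RPL22-STAMP libraries for 5.77%. Of the 7 tested members 1 differed (Aplp1, higher with RPL22-STAMP), 1 gene of 7 being close to that background. The median log2 fold change was -0.29 over the 7 members and -0.01 over all tested genes. Libraries of the variants did not overlap for 1 member (Adam10) on the deposited EPR, where 34.4% of tested genes did not overlap. On the scaled EPR they did not overlap for 3 members (App, Aplp1 and Aplp2), against 37.1% of tested genes.

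Aplp1, the family member largely restricted to neurons, had EPRs of 0.0118, 0.0155 and 0.0167 with RPL10A-STAMP, against 0.0162, 0.0223 and 0.0295 with RPL22-STAMP. The lowest RPL22-STAMP library lay just under the highest RPL10A-STAMP library, and the other RPL22-STAMP libraries lay above all 3. The means were 0.0147 ± 0.00254 and 0.0226 ± 0.00667 (SD, n = 3), and an exact two-sided permutation test gave p = 0.20. After scaling, the values were 0.0124, 0.0127 and 0.0130 against 0.0223, 0.0216 and 0.0329, with no overlap. The limma log2 fold change was -0.64 (SE 0.16, 95% interval -1.01 to -0.26, adjusted p = 0.0398). Aplp1 stood between the 50.4th and 53.7th percentile of edited genes with RPL10A-STAMP and between the 77.1st and 86.7th with RPL22-STAMP. Its transcript was richer in GC than 97.2% of tested genes, and its density of marked cytidines exceeded that of 1.26% of them. With a trend of EPR with GC content removed from each library, the log2 fold change was -0.26 (95% interval -0.62 to 0.10, limma adjusted p = 0.321). Without scaling between libraries it was -0.39 (adjusted p = 0.268), and leaving out any 1 of the 6 libraries also ended the call, with adjusted p from 0.0574 to 0.114.

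App differed in the same direction after scaling, without passing the threshold. Scaled values were 0.0463, 0.0446 and 0.0485 with RPL10A-STAMP, against 0.0632, 0.0590 and 0.0952 with RPL22-STAMP. All 3 RPL22-STAMP libraries were higher, and the third lay well above the other two. The limma log2 fold change was -0.52 (SE 0.19, 95% interval -0.97 to -0.07, adjusted p = 0.113), and -0.64 (adjusted p = 0.0867) with the GC trend removed. On the deposited scale the means were 0.0536 ± 0.00912 and 0.0640 ± 0.0200 (SD, n = 3) with overlapping libraries (exact permutation p = 0.60). Without the third RPL22-STAMP library the difference of these means, RPL10A-STAMP minus RPL22-STAMP, went from -0.0103 to 0.000407.

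Aplp2, the more widely expressed relative, was the steadiest member. Its EPR was 0.0144, 0.0180 and 0.0194 with RPL10A-STAMP, against 0.0142, 0.0166 and 0.0158 with RPL22-STAMP, so that the variants overlapped. The pooled SD within variants was 0.06 on the log2 scale, lower than in all but 3.21% of tested genes (median 0.22). The log2 fold change was -0.15 (SE 0.12, limma adjusted p = 0.451), with a 95% interval of -0.44 to 0.14. It was 0.09 (adjusted p = 0.783) without scaling, so its direction depended on the scaling.

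Ratios between the 3 precursor genes within a library need no scaling between libraries. They were chosen after the values had been seen, as was the ratio of Adam10 to Bace1, and the exact permutation p was adjusted over these 4. App over Aplp1 was 3.73, 3.51 and 3.73 with RPL10A-STAMP, against 2.83, 2.73 and 2.90 with RPL22-STAMP. The libraries of a variant lay close together and the variants did not overlap. Aplp1 over Aplp2 was 0.822, 0.860 and 0.862 against 1.14, 1.34 and 1.87, which placed Aplp1 below Aplp2 in all RPL10A-STAMP libraries and above it in all RPL22-STAMP libraries. The geometric mean of this ratio was 1.67 times higher with RPL22-STAMP. App over Aplp2 was 3.07, 3.02 and 3.21 against 3.23, 3.66 and 5.42, where the nearest libraries were close. Each of these 3 ratios gave an exact permutation p = 0.10, the smallest that 3 against 3 libraries allow, and an adjusted p of 0.13. They are not independent results, since App over Aplp2 is the product of the other ratios.

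**Figure D2:**
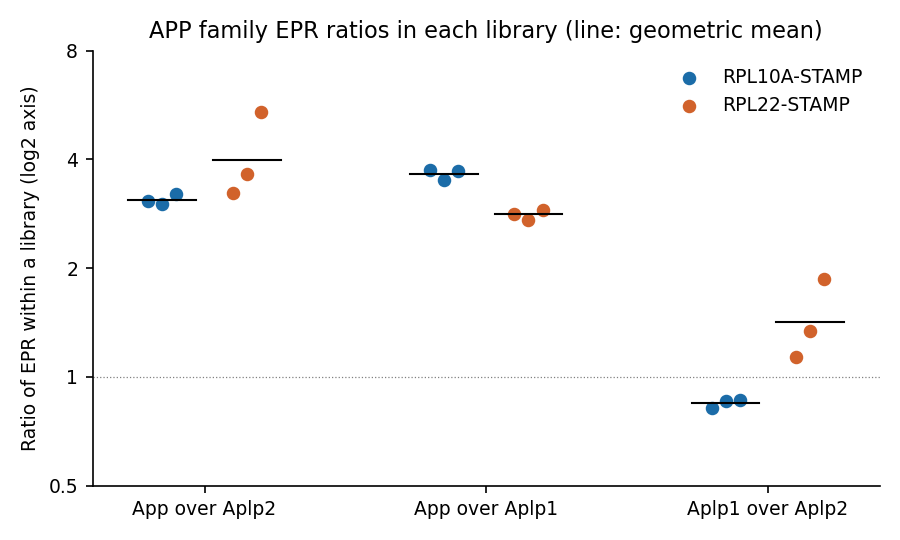
Ratio of the EPRs of 2 precursor genes in each library (log2 axis), with RPL10A-STAMP in blue and RPL22-STAMP in orange, and the geometric mean of 3 libraries as a line. Aplp1 over Aplp2 lies at 0.822 to 0.862 with RPL10A-STAMP and at 1.14 to 1.87 with RPL22-STAMP, on either side of 1.

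Adam10, the main alpha-secretase of neurons, showed the largest ratio of deposited means among the 8 genes. Its EPR was 0.0166, 0.0165 and 0.0209 with RPL10A-STAMP, against 0.0109, 0.00678 and 0.00419 with RPL22-STAMP. Every RPL10A-STAMP library was above every RPL22-STAMP library. The means of 0.0180 ± 0.00253 and 0.00727 ± 0.00336 (SD, n = 3) differed 2.48-fold (exact permutation p = 0.10). After scaling, the values were 0.0174, 0.0135 and 0.0163 against 0.0150, 0.00659 and 0.00467, and the first RPL22-STAMP library fell within the range of RPL10A-STAMP. The limma log2 fold change was 0.49 (SE 0.21, 95% interval -0.01 to 1.00, adjusted p = 0.170). It passed the threshold without scaling (0.71, adjusted p = 0.0473) and without the first RPL22-STAMP library (0.72, adjusted p = 0.0370). Adam10 is poor in GC, at the 12.7th percentile of tested genes, and with the GC trend removed its log2 fold change was 0.20 (adjusted p = 0.589).

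Bace1, the beta-secretase that makes the first cut toward amyloid-beta, had EPRs of 0.0124, 0.0197 and 0.0264 with RPL10A-STAMP, against 0.00675, 0.0206 and 0.0105 with RPL22-STAMP. The second RPL22-STAMP library lay among the RPL10A-STAMP libraries and the other two lay below all of them. The log2 fold change was 0.18 (95% interval -0.30 to 0.66, limma adjusted p = 0.589). Of the Bace1 exon bases, 32.5% overlap genes on the opposite strand, Rnf214 and Gm16536 among them. The counting's strand setting is not given in the sources used here, so its reads and edits may be shared. Bace1 is also in the available part of the study's list of genes left out of its analyses. The listed genes changed between neurons with and without doxycycline, which also induces the editor. The ratio of Adam10 to Bace1 was 1.33, 0.839 and 0.792 with RPL10A-STAMP, against 1.61, 0.329 and 0.399 with RPL22-STAMP, with overlap (exact permutation p = 0.40).

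Of the remaining genes of these protease classes, Adam9 was edited in all 6 libraries. This sheddase related to Adam10 falls outside the rule for named genes and was named after its values were seen. It had EPRs of 0.0223, 0.0378 and 0.0298 in the RPL10A-STAMP libraries and of 0.00958, 0.0174 and 0.0183 in the RPL22-STAMP libraries, which did not overlap. The log2 fold change was 0.42 (SE 0.16, 95% interval 0.03 to 0.80, limma adjusted p = 0.134), and its mean EPR was higher than those of Adam10 and Bace1 in both variants. Adam17, a second alpha-secretase, was above 0 in 3 libraries, at 0.00262 and 0.00959 with RPL10A-STAMP, against 0.0102 with RPL22-STAMP. Bace2, a relative of Bace1 that is low in neurons, was listed at 0 in all 6. A listed 0 can mean no edits or no reads, since the depth behind the values is unknown.

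Psen2, a catalytic subunit of gamma-secretase, was listed at 0 in the first RPL10A-STAMP library and had 0.0258 and 0.0226 in the other two. The RPL22-STAMP libraries had 0.00515, 0.0193 and 0.0189. The lowest value of each variant was in its first library and the variants overlapped, with means of 0.0161 ± 0.0141 and 0.0144 ± 0.00805 (SD, n = 3, exact permutation p = 0.80). Psen2 was not in the test of genes edited in all 6 libraries, and among the genes edited in at least 3 its log2 fold change was -0.28 (limma adjusted p = 0.781).

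Ncstn, the subunit that receives the substrate, had EPRs of 0.00623, 0.0129 and 0.00743 with RPL10A-STAMP, against 0.00672, 0.0133 and 0.0108 with RPL22-STAMP. In both variants the second library was highest and the first lowest, and the ranges nearly coincided. The log2 fold change was -0.29 (95% interval -0.65 to 0.08, limma adjusted p = 0.255). Its exons overlap Copa on the opposite strand over 4.91% of their bases.

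Aph1a, the main APH-1 protein, was the most variable of the tested members. Its EPR was 0.00687, 0.0158 and 0.0159 with RPL10A-STAMP, against 0.00575, 0.0160 and 0.0390 with RPL22-STAMP, with 1 library of the second variant far above the rest. The pooled SD within variants was 0.59 on the log2 scale, above that of 95.7% of tested genes. The log2 fold change was -0.49 (SE 0.38, 95% interval -1.38 to 0.40, limma adjusted p = 0.422). Without the third RPL22-STAMP library the difference of means turned from -0.00738 to 0.00198. The Aph1a values are uncertain, because 48.3% of the runs of 50 bases in its transcript also occur in Gm15429 and 12.9% of its exon bases overlap Car14 on the opposite strand.

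The other subunits were edited less regularly, apart from Aph1b. Aph1b, an alternative to Aph1a, had 0.0122, 0.0237 and 0.0182 against 0.0108, 0.0151 and 0.0213, with a log2 fold change of -0.12 (95% interval -0.55 to 0.31, limma adjusted p = 0.697). Its direction turned without scaling (0.12). Its neighbour and near copy Aph1c, with which it shares 19.7% of its runs of 50 bases, was above 0 in 4 libraries, between 0.00424 and 0.0144. Psenen was listed at 0 in all 3 RPL10A-STAMP libraries and had 0.00448, 0.00481 and 0.0115 in the RPL22-STAMP libraries (exact permutation p = 0.10). Of its runs of 50 bases 39.0% occur in Gm12396 or Gm20369. Like Adam17, Psenen is in the available part of the list of genes left out for changing with doxycycline treatment. Among the genes edited in at least 3 libraries the limma adjusted p of Psenen was 0.0674. The depth behind its values is unknown, so each may rest on few edits.

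**Figure D3:**
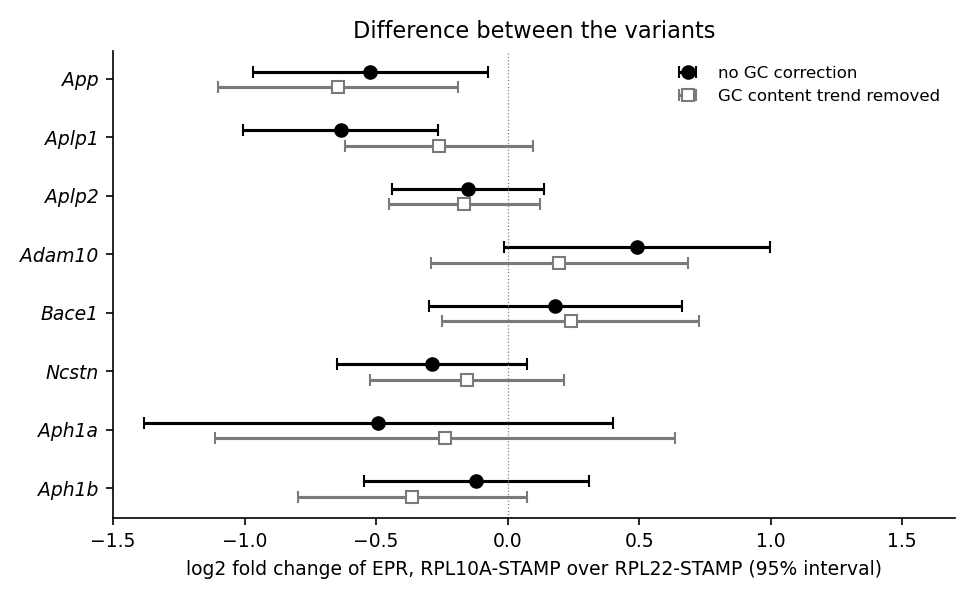
Log2 fold change of EPR, RPL10A-STAMP over RPL22-STAMP, with its 95% interval, for the 7 tested members and for Aph1b. Filled circles are the fit without a GC correction and open squares the fit after the GC trend was removed from each library. Aplp1 goes from -0.64 to -0.26 and Adam10 from 0.49 to 0.20, whereas App goes from -0.52 to -0.64.

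**Figure D4:**
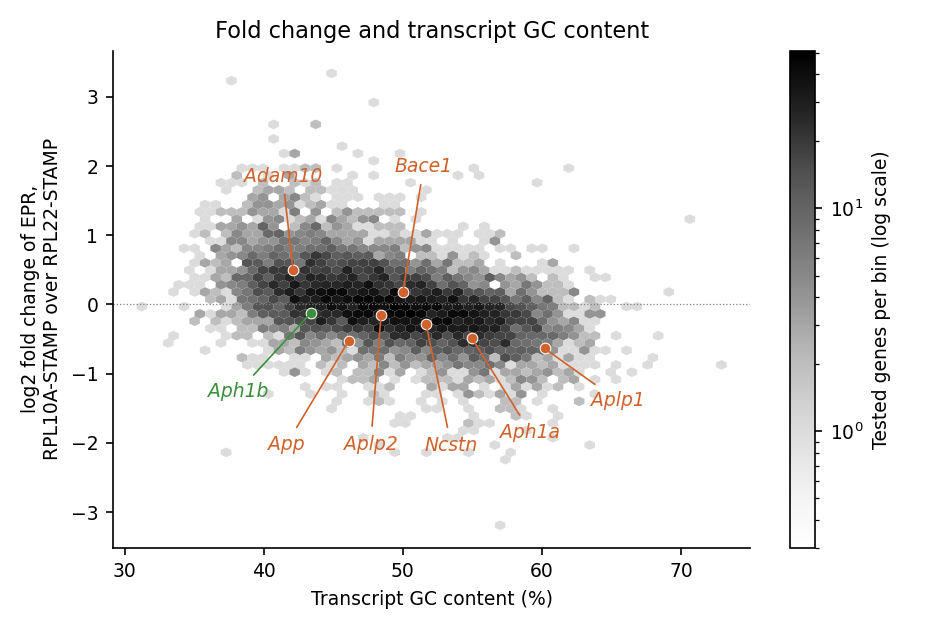
Log2 fold change of EPR, RPL10A-STAMP over RPL22-STAMP, against transcript GC content (%). Grey bins hold the tested genes, with darker bins holding more on a log scale, orange points are members and the green point is Aph1b. Aplp1 lies at 60.2% GC and -0.64, Adam10 at 42.1% and 0.49, and App at 46.1% and -0.52, at the lower edge of the densest bins at its GC content.

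Beyond the members, 90 genes of the pathway were listed in 9 groups, and 88 of them had a value in the tables. Of these, 82 were edited in at least 1 library and 69 were tested. Of the 69, 5 differed (7.25%, against 14.3% of all tested genes). For 3 the RPL10A-STAMP libraries were higher, and for 2 the RPL22-STAMP libraries. Their median log2 fold change was -0.09.

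Of 10 tested adaptors that bind the APP tail or its partners, 2 were higher with RPL22-STAMP and none was called higher with RPL10A-STAMP. Over all tested genes the shares called in these directions were 5.77% and 8.51%, and 10 genes are too few to read a direction from. Apbb1 (Fe65), which binds the tail stretch printed above, had EPRs of 0.00599, 0.00772 and 0.00494 against 0.00855, 0.0139 and 0.0124. All 3 RPL22-STAMP libraries were above the RPL10A-STAMP libraries, with a log2 fold change of -0.58 (SE 0.13, limma adjusted p = 0.0289). Mapk8ip2 (JIP2), a scaffold of stress kinases that also binds APP, had 0.00964, 0.0136 and 0.0135 against 0.0180, 0.0198 and 0.0238. These libraries did not overlap either, as in 34.4% of all tested genes. The log2 fold change was -0.70 (SE 0.14, limma adjusted p = 0.0205).

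Of 25 tested genes for the sorting and endocytosis of APP and BACE1, 1 was called. Vps26a, a subunit of the retromer that returns cargo from endosomes, had 0.0324, 0.0450 and 0.0636 with RPL10A-STAMP, against 0.0121, 0.0262 and 0.0198 with RPL22-STAMP. All 3 RPL10A-STAMP libraries were higher (log2 fold change 0.67, SE 0.18, limma adjusted p = 0.0489). Vps26a was called in 3 of 18 alternative limma fits, against 7 to 10 for the other called pathway genes. The other 24 did not pass the test.

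Among the 7 tested genes that degrade or carry amyloid-beta, Ide was called. This insulin-degrading enzyme, which also cleaves amyloid-beta, had 0.0142, 0.0199 and 0.0229 with RPL10A-STAMP, against 0.00483, 0.00828 and 0.00626 with RPL22-STAMP. The variants were well separated (log2 fold change 0.61, SE 0.12, limma adjusted p = 0.0212). Among 15 tested neuronal substrates that share these proteases, Nlgn1, a postsynaptic adhesion protein that ADAM10 sheds, had 0.0222, 0.0351 and 0.0326 against 0.0113, 0.00816 and 0.0111. It too was separated (log2 fold change 0.72, SE 0.17, limma adjusted p = 0.0339), and it was the 1 call of that group.

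No call was made among the 3 tested proprotein convertases, the 5 tetraspanins and partners of the sheddases, the 2 signal peptide peptidases or the 2 tested secretase genes outside the members, Adam9 and Aph1b. The 5 called genes differed in GC content as Adam10 and Aplp1 did. It was 59.1% in Apbb1 and 55.3% in Mapk8ip2, against 38.9% in Nlgn1, 43.0% in Vps26a and 43.5% in Ide. Not every tested pathway gene did so. Lrp10, named after its values were seen, had 58.8% GC and a log2 fold change of 0.50 (limma adjusted p = 0.189). With the length trend removed 4 of the 5 stayed called, and Nlgn1 did not (0.50, limma adjusted p = 0.110). With the GC trend removed none of the 5 passed the threshold (limma adjusted p from 0.0992 for Ide to 0.305 for Apbb1). Calls over all tested genes also fell, from 1149 of 8046 to 663 of 8039. Whether GC content underlies the loss of the 5 calls was not tested. In the fit with the GC trend removed 2 other pathway genes passed the threshold, named here after their values were seen. Mme (neprilysin), which degrades amyloid-beta, had a log2 fold change of -0.73 (limma adjusted p = 0.0216), and Sort1 (sortilin), a sorting receptor, one of 0.55 (limma adjusted p = 0.0497). Without the GC correction these were -0.28 (limma adjusted p = 0.236) and 0.45 (limma adjusted p = 0.0596). Mme, at 38.0% GC, had EPRs of 0.0119, 0.0141 and 0.0110 with RPL10A-STAMP, against 0.0127, 0.0154 and 0.0119 with RPL22-STAMP. These libraries overlapped, whereas those of Sort1 did not. With the second or the third RPL10A-STAMP library or the third RPL22-STAMP library left out, 0 pathway genes were called, and with any other library left out 2 were called.

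**Figure D5:**
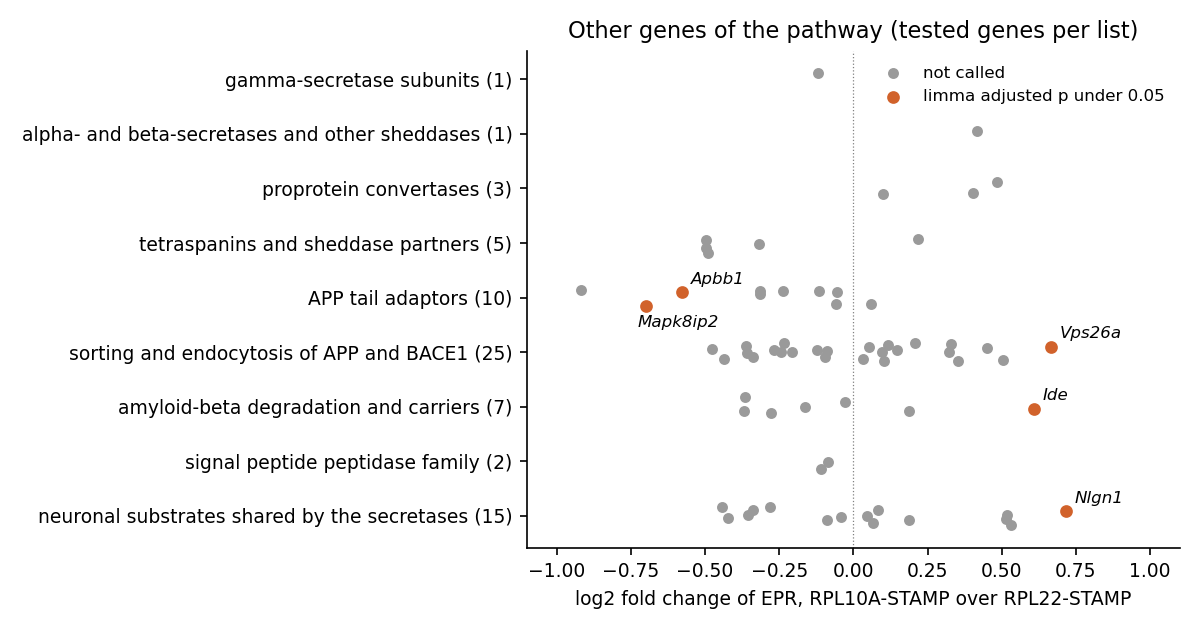
Log2 fold change of EPR, RPL10A-STAMP over RPL22-STAMP, of the 69 tested pathway genes outside the members, 1 row per group with its number of tested genes in brackets. Orange points are the 5 genes with a limma adjusted p under 0.05, and points are spread vertically within a row for visibility only.

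The genes whose scaled log2 EPR varied most like that of a precursor gene over the 6 libraries were ranked by the root mean square difference after each gene was centred on its own mean. For App these were Slc6a7, Ndrg2 and Pfkp, with differences of 0.07 to 0.08 against a median of 0.41 over all tested genes. For Aplp1 they were Adcy1, Nsg2 and Bbs4 (0.04 to 0.05, median 0.42). Dnajc6, Nr2f1 and Spin1 were nearest to Aplp2 (0.02 to 0.03, median 0.28). These genes were picked for the smallest differences, so that they lie below the median follows from the choice. With 6 libraries and 8046 genes, near matches are a description of these libraries.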

How the data were processed

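The 6 libraries (3 per variant, called biological replicates in the methods) were made with a stranded mRNA kit. For each gene the authors deposited the ratio of edits to reads, not normalized between libraries. The edits were found with SAILOR and the reads counted with featureCounts, after trimming with cutadapt and alignment to mm10 with STAR. The gene annotation and strand setting are not given in the sources used here. Depth behind each ratio is unknown, so no counting intervals were computed.

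Gene names came from GENCODE M21 (31011 of 31053 identifiers matched). The 8046 genes with an EPR above 0 in every library were tested. Libraries were brought to a common median over these genes (the geometric mean of their 6 medians). The test was limma 3.58.1 (R 4.3.3) on log2(scaled EPR + 0.01), allowing the variance to follow the mean, with Benjamini-Hochberg adjustment at 0.05, and was tested on simulated data. A spline (4 degrees of freedom) per library removed GC or length trends in the alternatives, which also varied the scaling, pseudocount, filter and libraries. Transcript features are those of the transcript with the longest coding sequence. For single values an exact permutation test (two-sided, 20 labelings) was used.

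The members and gene lists were chosen with earlier results of these data known. Named were all members, Psenen, Aph1b, Aph1c, Adam17 and Bace2, every called gene of the other lists, the 3 genes most like each precursor gene, and the tagged proteins. Apbb3 and Hm13 were not analysed here, and 1 gene of the lists is not reported here. Coding bases were read from GRCm38.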

Additional observations from a re-analysis of the deposited data

How the results depend on the processing

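Over the 18 alternative limma fits, App, Bace1, Ncstn and Aph1a kept their direction and were called in none, and Aplp1 kept its direction and was called in 4 (adjusted p 0.0299 to 0.342). Adam10 kept its direction and was called in 2 (adjusted p 0.0370 to 0.589). Over all tested genes 1149 were called. Requiring an EPR above 0 in only 3 libraries gave 754 and in only 1 library 569, removing the GC trend gave 663, and leaving out 1 library gave 373 to 874. The methods' t-test on the deposited EPR called 0 after Benjamini-Hochberg adjustment and 1996 at an unadjusted p under 0.05, where it named 1 of 7 members and limma 2. Under both wider filters, with the GC trend or the length trend removed, with a pseudocount of 0.1 and by the methods' t-test, 0 members were called in place of 1. Leaving out 1 library gave 0 to 1, the 1 being Adam10 without the first RPL22-STAMP library, and without scaling the 1 called member was also Adam10. The number of called pathway genes was 5. Without scaling it was 3, of which 2 (Ide and Nlgn1) were among the 5. Under the wider filters it was 2 (both among the 5) and 0, and with the GC trend removed 2 (0 among the 5). With 1 library left out it was 0 to 2, and by the methods' t-test 0. The cause of these changes was not tested, and leaving out a library also lowers the number of samples.

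The replicate block lowered the tested genes called to 603, the members to 0 and the pathway genes to 0. With the GC trend removed and the replicate block these were 227, 0 and 0. A block also leaves fewer degrees of freedom for the variance. The deviations of same-numbered libraries from the means of their variants were nearly uncorrelated after scaling (0.0437, 0.0464 and -0.00546). Scaling removes shifts of whole libraries. Before scaling, the first library had the lowest median EPR in both variants (0.0120 and 0.00907). Whether same-numbered libraries share a culture or batch was not tested. Without scaling, 88.1% of calls were higher with RPL10A-STAMP (59.6% with scaling), and over all tested genes the median log2 fold change was 0.18 in place of -0.01.

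Signs turned for genes that were not called. The log2 fold change of Aplp2 was 0.0933 without scaling and 0.1555 by the methods' t-test, and that of Aph1b 0.1234 and 0.1971. With 1 library left out, that of Aph1b ranged from -0.2279 to 0.0303. The difference of mean EPR then ranged from -0.0194 to 0.000407 for App, from -0.0146 to 0.00198 for Aph1a, from -0.00343 to 0.000104 for Ncstn and from -0.00316 to 0.00974 for Psen2. In multiples of the library median it turned for Aplp2 (-0.222) and Psen2 (-0.219).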
